A study of Mus musculus with 18 samples.

Results

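The genes described here are 10 genes of smooth muscle and of platelet-derived growth factor (PDGF) signalling in fetal mouse lung. They were chosen by symbol: every probe set annotated to Acta2, Myh11, Tagln, Cnn1, Actg2, Des, Pdgfa, Pdgfb, Pdgfra or Pdgfrb was taken, which gave 19 of the 45037 probe sets tested. Of these, 10 probe sets belong to the 6 contractile or intermediate filament genes and 9 to the 4 PDGF genes. Each gene is given by its probe set of highest mean, and any other probe set is named as such. Lung RNA of BALB/c fetuses was hybridised to 18 MOE430 2.0 arrays. By the study's account each carried a pool of RNA from 3 fetuses of 1 sex, taken from separate litters. The pool labelled 18 flut 3 went against this in its sex-linked genes, as given below. The dams received either vehicle or the antiandrogen flutamide (1 mg per day, under the skin) from gestational day (GD) 10 until the day before harvest. With 3 pools in each, the groups were vehicle males (17 m, 18 m), vehicle females (17 f, 18 f) and males of flutamide-injected dams (17 flut, 18 flut), at GD17 or at GD18. No flutamide-exposed females enter the design, flutamide reached the fetus through the dam, and a pool hides the spread between its 3 fetuses.

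Smooth muscle cells wrap the airways and vessels of the lung. Their contractile apparatus is built from smooth muscle actins and myosin and from proteins that bind them, and much of it is switched on through serum response factor (SRF) and its partners of the myocardin family, which act at a DNA element called the CArG box. PDGF ligands are dimers that activate 2 receptor tyrosine kinases. In the developing lung PDGF-A from the epithelium acts on mesenchymal cells that carry PDGFR-alpha, among them the precursors of alveolar myofibroblasts, and PDGF-B from endothelium acts on pericytes and vascular smooth muscle cells that carry PDGFR-beta.

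The stretch just before the transcription start was read for the CArG box, since contractile genes moved together below. RefSeq windows of 250 bases (GRCm38.p6) were read for 5 of the 10 genes: Acta2, Cnn1, Des, Pdgfa and Pdgfra. The other members were not searched. The pattern searched, which reads the same on both strands, was the CArG box by its usual form, with A or T at all 6 inner positions or at 5 of the 6. In the Acta2 window the form with 5 of 6 was found at 2 places that do not overlap, at positions -84 and -34 relative to the start, and the full form at none. Of 32851 windows of this length, 1.47% held the full form, 8.59% held a match with at least 5 of 6, and 0.67% held 2 or more of these. The windows of Cnn1, Des, Pdgfa (2 starts) and Pdgfra held no such letters, which says nothing of the factor elsewhere. Capitals mark the matches in the Acta2 window (chr19:34255374-34255623, minus strand). The windows of Cnn1 (chr9:22099003-22099252, plus strand), which moved with Acta2, and of Pdgfra (chr5:75152001-75152250, plus strand), which moved the other way, are shown for comparison.
Acta2: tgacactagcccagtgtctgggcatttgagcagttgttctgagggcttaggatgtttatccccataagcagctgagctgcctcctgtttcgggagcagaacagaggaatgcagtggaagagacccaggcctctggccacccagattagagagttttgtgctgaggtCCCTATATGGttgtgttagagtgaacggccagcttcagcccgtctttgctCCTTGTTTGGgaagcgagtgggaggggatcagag
Cnn1: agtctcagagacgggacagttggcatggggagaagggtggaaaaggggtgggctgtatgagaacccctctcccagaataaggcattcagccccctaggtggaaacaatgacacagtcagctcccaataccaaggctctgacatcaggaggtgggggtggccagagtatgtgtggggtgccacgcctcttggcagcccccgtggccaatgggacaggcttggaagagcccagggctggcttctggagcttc
Pdgfra: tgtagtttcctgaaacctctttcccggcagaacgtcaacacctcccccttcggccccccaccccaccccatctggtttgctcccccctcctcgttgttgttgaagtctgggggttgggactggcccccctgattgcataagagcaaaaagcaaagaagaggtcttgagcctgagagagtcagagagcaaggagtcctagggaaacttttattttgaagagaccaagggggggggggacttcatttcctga

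Values below are log2 of the deposited intensity, and a difference is the log2 value of the first-named group minus that of the second, with the standard error (SE) of the limma model. A probe set was called where its adjusted p in limma (Benjamini-Hochberg, all 45037 probe sets of a comparison) was under 0.05. All 10 genes were well measured by their brightest probe set: their means over 18 arrays ran from 8.22 (Des) to 12.77 (Acta2), at or above the 75.8th percentile of all probe sets. Levels of different probe sets are not compared, since each probe has its own brightness. Of the other 9 probe sets, 4 were dim and 3 of these belong to Acta2 (4.61 and 3.90) and Myh11 (4.85), the last to Des (4.93). None of these 4 was called in any comparison, and the Acta2 probe set of highest mean is of a class (_s_at) that can also bind other transcripts.

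Several pools stood apart in markers of neighbouring tissues, and these are given before the results because some member genes moved with them. In 17 f 2, 17 f 3 and 17 m 3, 7 of 7 measured exocrine pancreas genes were above every other pool, by a median of 4.44 on the log2 scale, and 4 of 8 squamous epithelium genes were as well. In 17 f 2 and 17 f 3, so were 4 of 8 stomach genes, with a median gap of 0.22 over the list. Liver genes summed to 35257 in 17 f 2, 34960 in 17 f 3 and 34595 in 17 m 3, against 2126 to 15896 in the other GD17 pools. The summed intensity of the pancreas genes was 420.3 to 9814 in 17 m, 519.9 to 12634.5 in 17 f, and 463.4 to 543.9 over the pools of the other 4 groups. In 18 flut 2 and 18 f 2, 8 of 8 skeletal muscle genes were above every other pool, by a median of 3.99. Their sums were 1194 to 32120 in 18 flut and 2116 to 17498 in 18 f, against 1094 to 4761 over the other groups. In 18 m 3 all 8 liver genes were above every other pool, and in 18 m 3 with 18 flut 3 so were 6 of 8 cardiac genes. Cardiac sums were 17990.2 to 30176 in 18 m and 11071 to 27289 in 18 flut, and 10794 to 22678 elsewhere. The array of 18 m 3 also had a lower 5' to 3' difference of the control transcripts, at -0.39 for Gapdh against 0.14 to 0.27 on the other arrays. The pool labelled 18 flut 3 went against its label. Xist, the RNA of the inactive X chromosome, was at 11.95 there and at 8.15 and 8.08 in the other 18 flut pools. In 18 f Xist was at 12.33 to 12.51. In the pool labelled 18 flut 3, 3 Y-linked genes were at 39.8% to 43.9% of their 18 m mean. Whether this pool holds fetuses of both sexes was not tested. Of the lung epithelial markers, Sftpc, the gene of surfactant protein C, was between 13.92 and 14.72 over all pools and Sftpb, that of surfactant protein B, between 9.67 and 12.06. Nkx2-1, the transcription factor of lung epithelium, was between 5.77 and 6.63, around the array medians, the lowest of which was 6.34. The deposited intensities do not fall below 6.61, so a list sum above 0 does not show that a tissue was present.

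**Figure D1:**
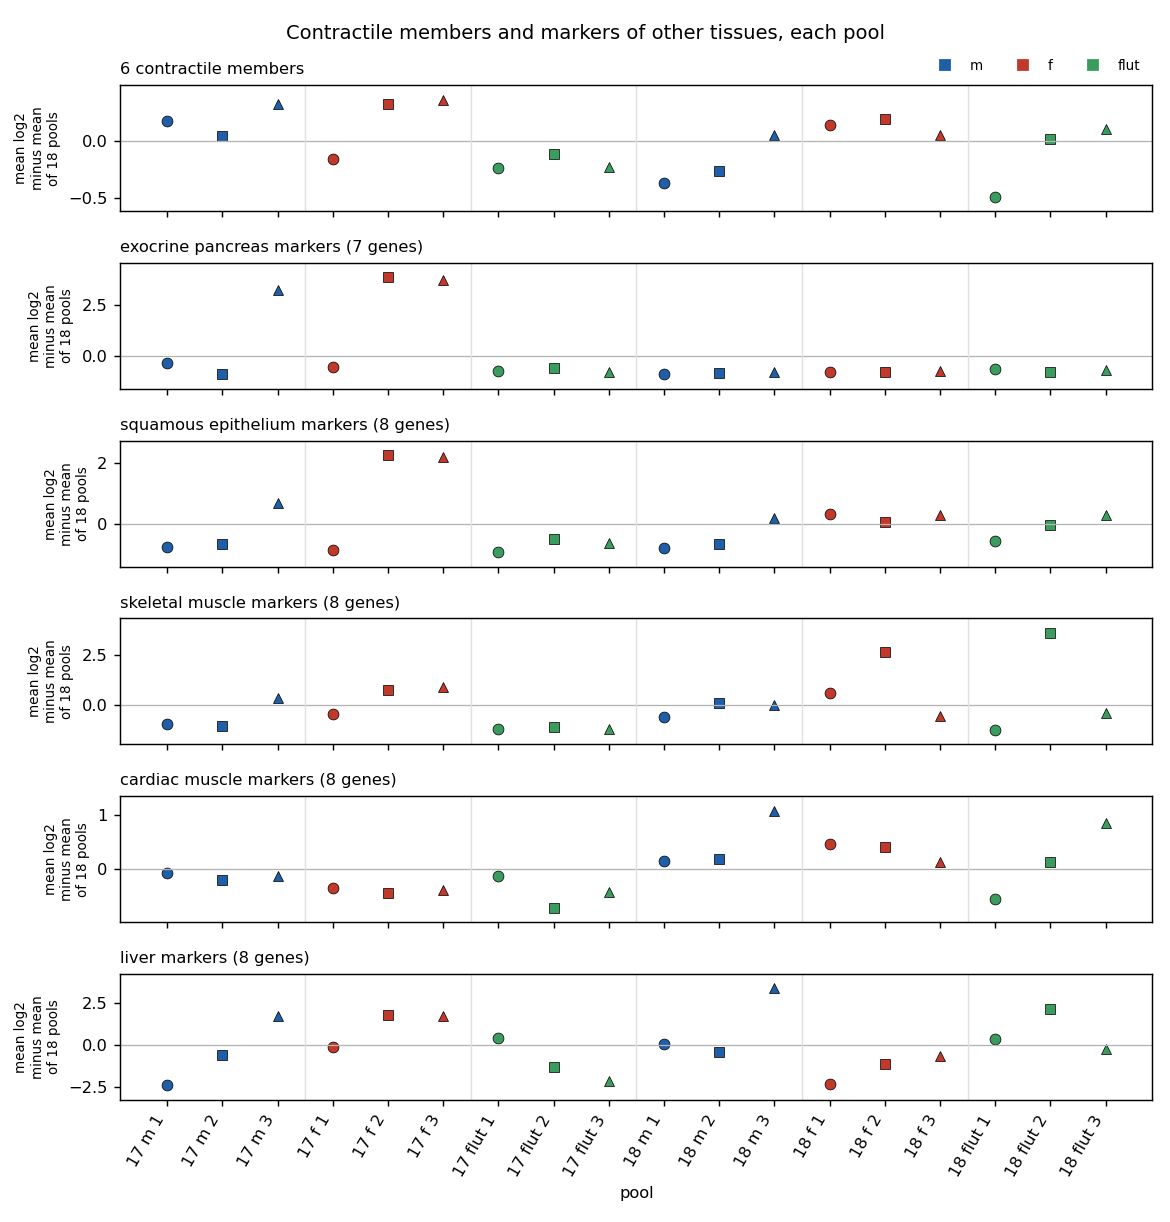
Mean log2 level of the 6 contractile genes and of 5 lists of markers of other tissues, in each of the 18 pools (x axis), as the difference from the mean of all 18 pools (y axis, log2, a separate scale in each panel). Symbols mark pool 1, 2 and 3, colours mark m, f and flut. The pancreas list stands high in 17 m 3, 17 f 2 and 17 f 3, the skeletal muscle list in 18 f 2 and 18 flut 2, and the contractile genes are highest in the same 3 GD17 pools, at 0.33 to 0.37.

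From GD17 to GD18, 4 of the 6 contractile genes fell in males and 2 of the 4 PDGF genes rose. In 18 m against 17 m, 6 of the 10 genes were called, where 25.0% of all probe sets were called: Acta2, Myh11, Cnn1 and Actg2 were lower (12.6% of all probe sets were lower) and Pdgfb and Pdgfra higher (12.4%). In 5 of the 6 contractile genes, these 4 and Tagln, no 18 m pool reached a 17 m pool, where 16.5% of all probe sets had such a gap in that direction. The falls of the 4 contractile genes ran from 1.26-fold (Myh11) to 1.81-fold (Actg2). The median difference of the 6 contractile genes was -0.36, against 0.01 over all probe sets. A lower level in whole lung can come from fewer cells of a type or from less RNA per cell, and these cannot be told apart here.

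Acta2 codes for alpha smooth muscle actin, the most abundant actin of vascular and airway smooth muscle and of myofibroblasts. At GD17 it was at 12.96, 12.86 and 12.97 in 17 m, at 12.78, 13.00 and 12.96 in 17 f, and at 12.76, 12.80 and 12.78 in 17 flut. At GD18 it was at 12.45, 12.49 and 12.73 in 18 m, at 12.79, 12.80 and 12.79 in 18 f, and at 12.50, 12.71 and 12.78 in 18 flut. All 18 m pools lay below all 17 m pools and below all 18 f pools. The 18 flut pools also lay below both of those groups and overlapped 18 m. The fall in males was -0.37 (SE 0.09, 3 pools a group, limma adjusted p = 0.00392), and it stayed called, at -0.46 to -0.32, with any 1 of the 6 pools left out. In females the difference of -0.12 (SE 0.09, adjusted p = 0.324) and in flutamide-treated males that of -0.12 (SE 0.09, adjusted p = 0.42) were not called. The fall in males was no longer called when only the groups compared were fitted (adjusted p = 0.0561) or when its 3 probe sets, 2 of them dim, were averaged (-0.13, adjusted p = 0.115).

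Actg2, the gamma smooth muscle actin of visceral muscle, and Cnn1, calponin, which binds actin and restrains the myosin motor, ran nearly in parallel, with a Pearson r of 0.98 over the 18 arrays that is given as a description only. Actg2 was at 10.13, 9.998 and 10.68 in 17 m, at 9.75, 10.65 and 10.65 in 17 f, and at 9.48, 9.74 and 9.61 in 17 flut. The GD18 pools were at 9.24, 9.38 and 9.63 in 18 m, at 9.96, 9.97 and 9.87 in 18 f, and at 9.01, 9.59 and 9.91 in 18 flut. The 3 highest values are those of 17 m 3, 17 f 2 and 17 f 3, the pools high in pancreas genes, and the other 15 pools reached at most 10.13. For Cnn1 the same 3 pools were at 9.22 to 9.34 and the other 15 at 7.73 to 8.88. What tissue rich in pancreas, squamous, stomach or liver genes adds to these values was not tested.

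Actg2 fell by 0.85 from 17 m to 18 m (SE 0.24, limma adjusted p = 0.015) and Cnn1 by 0.71 (SE 0.22, adjusted p = 0.0251). No 18 m pool reached a 17 m pool in either gene. Without the 3 pancreas-high pools the differences were -0.65 for Actg2 (adjusted p = 0.0317) and -0.56 for Cnn1 (adjusted p = 0.0583). Without 17 m 3 alone neither was called (adjusted p = 0.0806 for Actg2 and 0.113 for Cnn1), and the Cnn1 call was also lost without 17 m 1, 18 m 1 or 18 m 2 (adjusted p = 0.0556, 0.0739 and 0.0632). In females the differences were -0.42 for Actg2 (SE 0.24, adjusted p = 0.214) and -0.41 for Cnn1 (SE 0.22, adjusted p = 0.181). The sign of both rests on 17 f 2 and 17 f 3, which are high in pancreas genes. The remaining pool, 17 f 1, was at 9.75 in Actg2 and 8.48 in Cnn1, below all 18 f pools (9.87 to 9.97 and 8.50 to 8.75). In flutamide-treated males the differences were -0.10 for Actg2 (SE 0.24, adjusted p = 0.842) and -0.14 for Cnn1 (SE 0.22, adjusted p = 0.761).

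Myh11, the heavy chain of smooth muscle myosin and the marker most particular to mature smooth muscle, was at 10.04, 9.87 and 9.91 in 17 m, at 9.35, 9.84 and 9.83 in 17 f, and at 9.41, 9.56 and 9.52 in 17 flut. At GD18 it was at 9.59, 9.58 and 9.63 in 18 m, at 9.86, 9.78 and 9.86 in 18 f, and at 9.45, 9.61 and 9.75 in 18 flut. The highest group was 17 m, all of whose pools lay above every pool of the other 5 groups. Myh11 fell from 17 m to 18 m (-0.34, SE 0.11, limma adjusted p = 0.0296), and leaving out 17 m 1, 17 m 3, 18 m 1 or 18 m 2 took the adjusted p to between 0.0547 and 0.111. It was not called either with an indicator for the 3 pancreas-high pools (adjusted p = 0.0782) or with the mean of both probe sets (adjusted p = 0.106). In females it went from 9.68 ± 0.28 (SD, n = 3) to 9.84 ± 0.04, a difference of 0.16 (SE 0.11, adjusted p = 0.293). The single 17 f pool not high in pancreas genes, 17 f 1, had the lowest Myh11 of all 18 pools. With the 3 pancreas-high pools left out, so that 17 f rests on 17 f 1, whose spread is then taken from the other groups, Myh11 was higher in 18 f than in 17 f (0.48, adjusted p = 0.00804).

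Tagln (transgelin, an actin-binding protein of early and mature smooth muscle) was at 10.83, 10.83 and 10.97 in 17 m, at 10.66, 11.02 and 11.08 in 17 f, and at 10.68, 10.78 and 10.58 in 17 flut. At GD18 it was at 10.61, 10.66 and 10.72 in 18 m, at 11.08, 11.09 and 10.99 in 18 f, and at 10.58, 10.72 and 10.99 in 18 flut. The 18 m pools lay below all 17 m and all 18 f pools. Its difference between days was not called in any group, at -0.22 in males (adjusted p = 0.168), 0.13 in females (adjusted p = 0.402) and 0.08 in flutamide-treated males (adjusted p = 0.688).

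Des codes for desmin, an intermediate filament shared by smooth, skeletal and cardiac muscle, and it kept apart from the other 5 genes. At GD17 its 9 pools lay between 7.86 and 8.23. At GD18 they lay between 7.68 and 9.25, with the highest values in 18 flut 2 (9.25), 18 m 3 (9.06) and 18 f 2 (8.70), which are the pools high in skeletal or cardiac muscle genes. The differences from GD17 to GD18 were 0.24 in males, 0.36 in females and 0.58 in flutamide-treated males, each with an SE of 0.32, and none was called (adjusted p = 0.656, 0.439 and 0.245). The share of desmin that comes with striated muscle was not tested.

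**Figure D2:**
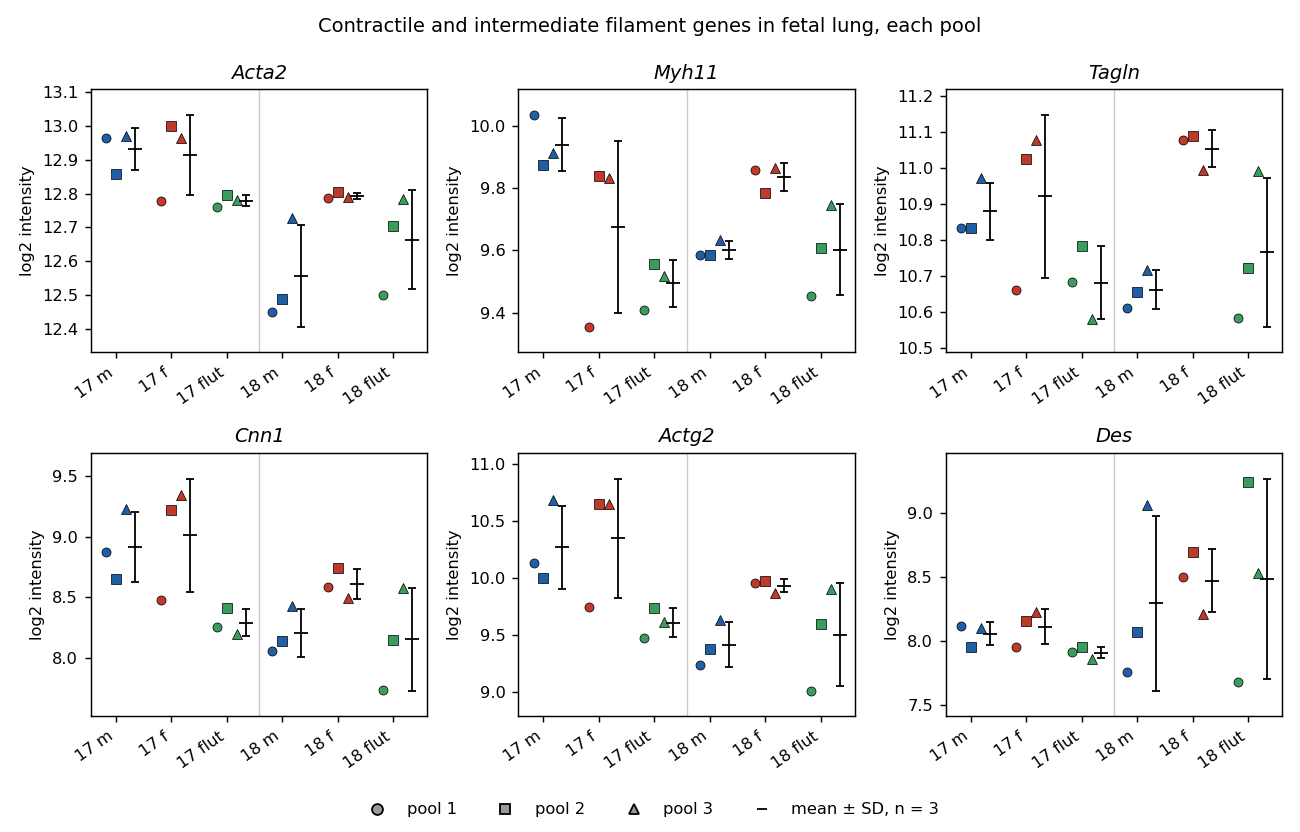
Log2 intensity (y axis, a separate scale in each panel) of the 6 contractile and intermediate filament genes in the 3 pools of each group (x axis), with the mean and SD beside the pools and GD17 left of the grey line. In 4 of 6 panels (Acta2, Myh11, Cnn1, Actg2) the fall from 17 m to 18 m was called, and Des spreads from 7.68 to 9.25 at GD18.

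From GD17 to GD18, 2 of the 4 PDGF genes rose in males, and 3 of the 4 in females and in flutamide-treated males. Pdgfb and Pdgfra were called higher in all 3 comparisons of days and Pdgfrb in 2 of them, whereas Pdgfa was called in none. In females 3 of the 10 genes were called, all PDGF genes and all higher, where 33.6% of all probe sets were called and 16.5% were higher. In flutamide-treated males the same 3 genes were called higher, where 20.3% of all probe sets were called and 9.61% were higher. In both groups the GD18 pools of these 3 genes lay above all GD17 pools, as in 24.6% of all probe sets in females and 18.3% in flutamide-treated males. The median difference of the 4 PDGF genes was 0.25 in males, 0.58 in females and 0.36 in flutamide-treated males, against medians of 0.01, 0.02 and -0.01 over all probe sets.

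Pdgfb, the ligand that recruits pericytes, was at 8.48, 8.36 and 8.28 in 17 m, at 8.52, 8.46 and 8.41 in 17 f, and at 8.58, 8.6 and 8.59 in 17 flut. On GD18 its values were 8.84, 9.05 and 9.19 in 18 m, at 9.27, 9.07 and 8.97 in 18 f, and at 9.20, 8.90 and 9.27 in 18 flut. Every GD18 pool lay above every GD17 pool. The rise was 0.66 in males (SE 0.10, 1.58-fold, limma adjusted p = 0.000244), 0.64 in females (SE 0.10, adjusted p = 0.000143) and 0.54 in flutamide-treated males (SE 0.10, adjusted p = 0.00138). In each of the 3 comparisons it was called with any 1 of the 6 pools left out and under all 16 other settings. The difference between the sexes in this rise was 0.02 (95% interval -0.29 to 0.33), and that between flutamide-treated and vehicle males -0.12 (-0.43 to 0.19).

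The second Pdgfb probe set (mean 6.87) rose in females by 0.48 and in flutamide-treated males by 0.50, and in males its pools were at 7.01, 7.18 and 6.65 at GD18 against 6.62 to 6.77 at GD17, with no call. The low pool is 18 m 3, whose control transcripts had the low 5' to 3' difference.

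Pdgfra, the receptor of mesenchymal cells that binds PDGF-A, was at 11.07, 11.14 and 10.90 in 17 m, at 10.88, 10.84 and 10.89 in 17 f, and at 11.03, 11.09 and 11.04 in 17 flut. A day later it was at 11.37, 11.31 and 11.10 in 18 m, at 11.53, 11.37 and 11.40 in 18 f, and at 11.49, 11.38 and 11.39 in 18 flut. In females and flutamide-treated males the days did not overlap, whereas 18 m 3 lay within the range of 17 m. The rise was 0.56 in females (SE 0.08, 1.48-fold, limma adjusted p = 2.75e-05), 0.37 in flutamide-treated males (SE 0.08, adjusted p = 0.00254) and 0.22 in males (SE 0.08, adjusted p = 0.0488). The male value lies at the threshold, and it was not called without 17 m 1, 17 m 3, 18 m 1 or 18 m 2 (adjusted p = 0.0742 to 0.203). It kept its call under 7 of 16 other settings and lost it with median centring, repeated quantile normalization, robust moderation, a fit of only the groups compared, the indicator for the 3 pancreas-high pools, the mean of probe sets, and without those 3 pools, without 18 flut 2 and 18 f 2 or without all 7 pools that stand apart (adjusted p = 0.0507 to 0.799). The difference between the male and the female rise was -0.34 (SE 0.11, adjusted p = 0.0778). Of the other Pdgfra probe sets, that of mean 6.48 was called higher in females only (0.23, SE 0.08, adjusted p = 0.0433), with 0.21 in males and 0.20 in flutamide-treated males. That of mean 7.92 was not called, and in 18 m its pools were at 8.56, 8.18 and 6.20, the last being 18 m 3. Averaged over its 3 probe sets, the male difference of Pdgfra was -0.06 (adjusted p = 0.799), and those of 0.34 in females and in flutamide-treated males were not called (adjusted p = 0.0884 and 0.117). Without 18 m 3 and the pool labelled 18 flut 3 the rise was 0.38 in flutamide-treated males (adjusted p = 0.00233) and 0.30 in males (adjusted p = 0.0114).

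Pdgfrb, the receptor of pericytes and vascular smooth muscle that binds PDGF-B, was at 10.14, 9.94 and 9.82 in 17 m, at 9.83, 9.78 and 9.81 in 17 f, and at 10.04, 10.02 and 9.94 in 17 flut. At GD18 it was at 10.06, 10.21 and 10.49 in 18 m, at 10.62, 10.32 and 10.27 in 18 f, and at 10.44, 10.29 and 10.33 in 18 flut. Males overlapped between days and the other groups did not. The rise was 0.60 in females (SE 0.11, 1.52-fold, limma adjusted p = 0.000373) and 0.35 in flutamide-treated males (SE 0.11, adjusted p = 0.0311), and the male difference of 0.28 (SE 0.11, adjusted p = 0.0702) was not called. The call in flutamide-treated males was lost when any 1 of 5 of their 6 pools was left out (adjusted p = 0.0596 to 0.115), 18 flut 2 being the exception. The dimmer Pdgfrb probe set (mean 7.82) differed by 0.18, 0.19 and 0.21 between days and was not called.

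Pdgfa, the ligand made by lung epithelium, stayed between 9.59 and 9.86 in all 18 pools. Its differences between days were 0.06, 0.04 and 0.03, each with an SE of 0.06 and 95% intervals from -0.10 to 0.19 in all. Its dimmer probe set (mean 7.22) was called higher in males at GD18 (0.35, SE 0.11, adjusted p = 0.0317), where 18 m 3 stood at 7.70 against 7.13 and 7.23.

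**Figure D3:**
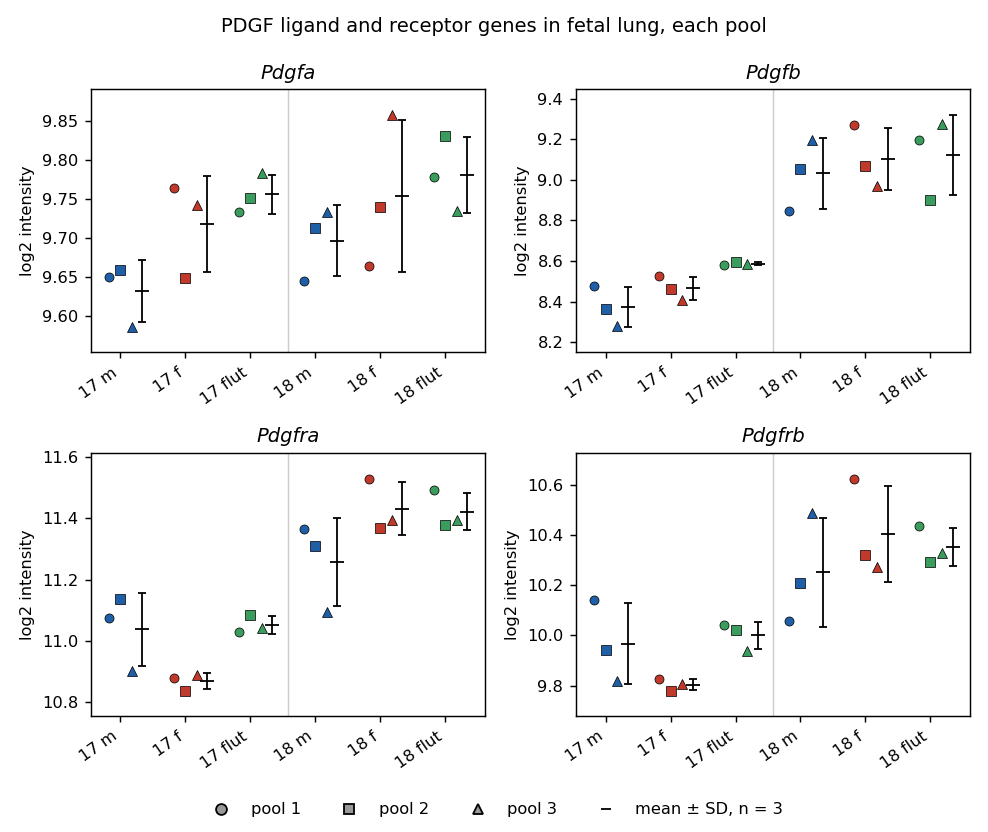
Log2 intensity (y axis, a separate scale in each panel) of the 4 PDGF ligand and receptor genes in the 3 pools of each group (x axis), with the mean and SD beside the pools and GD17 left of the grey line. All 9 GD18 pools of Pdgfb lie above all 9 GD17 pools, and Pdgfa covers only 9.59 to 9.86.

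**Figure D4:**
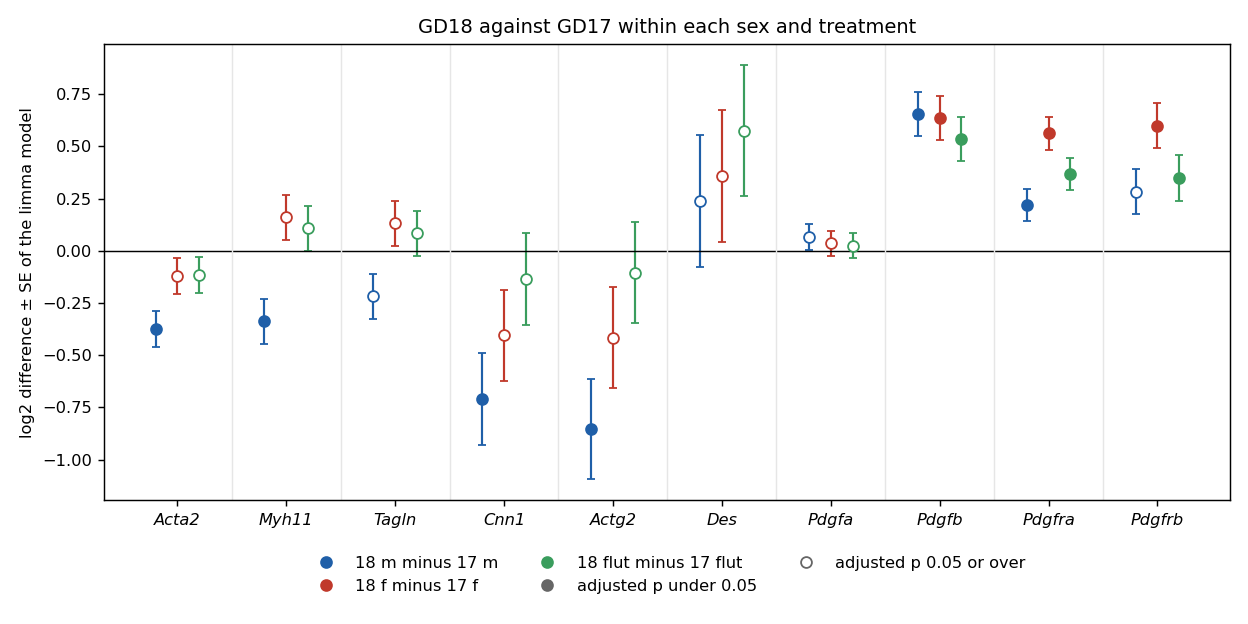
Difference of GD18 minus GD17 (y axis, log2, with the SE of the limma model) for the 10 genes in males, females and flutamide-treated males, 3 pools a group. Filled points are called. Filled points below 0 are those of males in Acta2, Myh11, Cnn1 and Actg2, and filled points above 0 belong to Pdgfb, Pdgfra and Pdgfrb.

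Whether the fall of the contractile genes differed between the sexes was tested as the difference of the day differences (males minus females). It was below 0 for all 6 contractile genes, from -0.12 for Des to -0.50 for Myh11 (SE 0.15, adjusted p = 0.0625). None of the 10 genes was called by limma in this test, where 6.54% of all probe sets were called, and 3 had an unadjusted p under 0.05 (Myh11, Tagln and Pdgfra). Without the 3 pancreas-high pools the Myh11 difference was -0.83, but 17 f then rests on 17 f 1 alone, the pool with the lowest Myh11. For flutamide-treated against vehicle males the same kind of difference was above 0 for all 6 contractile genes, from 0.26 (Acta2) to 0.75 (Actg2). None of the 10 was called there, with 3 at an unadjusted p under 0.05 (Acta2, Myh11 and Actg2) and 0.364% of all probe sets called. The 18 flut mean holds the pool labelled 18 flut 3, whose sex-linked genes went against its label. With any 1 pool left out the difference was 0.20 to 0.34 for Acta2, 0.38 to 0.52 for Myh11 and 0.55 to 0.996 for Actg2.

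At GD18 the contractile genes were lower in males than in females, with differences that did not pass the test. In 18 m against 18 f all 6 contractile genes were below 0 and in 5 of them, all but Des, no male pool reached a female pool, where 7.33% of all probe sets had such a gap in that direction. None of the 10 genes was called by limma (1.85% of all probe sets were), and 5 had an unadjusted p under 0.05. The size ran from -0.17 (Des) to -0.52 (Actg2, SE 0.24, adjusted p = 0.339), and the smallest adjusted p was that of Tagln (-0.39, SE 0.11, adjusted p = 0.0775). Without 18 m 3 and the pool labelled 18 flut 3, Acta2 (-0.32, adjusted p = 0.0272) and Tagln (-0.42, adjusted p = 0.0346) were called lower in males. With all 7 pools that stand apart left out, Acta2, Tagln, Cnn1 and Actg2 were called lower (-0.32, -0.40, -0.45 and -0.61). Those 7 were 17 m 3, 17 f 2, 17 f 3, 18 m 3, 18 f 2, 18 flut 2 and 18 flut 3, and 17 f and 18 flut then rest on 1 pool each. The summed intensity of the squamous epithelium genes was 1908 to 2558 in 18 f. In 18 m 1, 18 m 2 and 18 m 3 it was 689, 773 and 2009. Both of these fits leave out 18 m 3, so that 18 m then rests on the pools low in squamous genes. What the squamous-rich tissue adds to these differences was not tested. The comparison of days in males uses the same 18 m pools, so both sets of values share their spread.

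At GD17 no difference between the sexes passed the test in these genes. In 17 m against 17 f none of the 10 genes was called (4.10% of all probe sets were) and 2 had an unadjusted p under 0.05, Myh11 (0.26, SE 0.11, adjusted p = 0.216) and Pdgfra (0.17, SE 0.08, adjusted p = 0.291). The other 5 contractile genes were between -0.10 and 0.02. Both groups hold pancreas-high pools, and without those 3 Myh11 was called higher in 17 m than in the remaining 17 f pool (0.60, adjusted p = 0.0343).

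Myh11 was lower in flutamide-treated than in vehicle males at GD17. In 17 flut against 17 m all 6 contractile genes were below 0, and in all 6 no flutamide pool reached a vehicle pool, where 14.0% of all probe sets had such a gap in that direction. Of the 10 genes 1 was called, Myh11 (-0.45, SE 0.11, 1.36-fold, limma adjusted p = 0.0341), where 3.55% of all probe sets were called and 2.28% were lower. Cnn1 (-0.63, SE 0.22, adjusted p = 0.12) and Actg2 (-0.66, SE 0.24, adjusted p = 0.136) had larger differences and were not called, and Acta2 (-0.15), Tagln (-0.20) and Des (-0.15) had smaller ones. The Myh11 difference ranged from -0.48 to -0.40 with 1 pool left out, but its adjusted p then rose to between 0.0502 and 0.127 for each of the 6 pools. Its dim second probe set went the other way (0.22, SE 0.08, adjusted p = 0.139), with no overlap of pools, and the mean of both differed by -0.11 (adjusted p = 0.341). The call was also lost with the indicator for the 3 pancreas-high pools (adjusted p = 0.0608) and without 18 flut 2 and 18 f 2 (adjusted p = 0.0538). With all 7 pools that stand apart left out Myh11 (-0.46), Cnn1 (-0.48) and Actg2 (-0.46) were called lower (adjusted p = 0.00987, 0.0166 and 0.0186). The comparison shares the 17 m pools with that of days in males.

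None of the PDGF genes was called in 17 flut against 17 m, and by their brightest probe sets the differences were between 0.02 and 0.21. Their other probe sets went both ways, with no call. Lower in 17 flut were those of Pdgfra (mean 7.92, -0.56, SE 0.38), Pdgfrb (mean 7.82, -0.13) and Pdgfb (mean 6.87, -0.03). Higher were those of Pdgfa (mean 7.22, 0.18) and Pdgfra (mean 6.48, 0.19). The pools did not overlap in either of these Pdgfra probe sets or in that of Pdgfrb. At GD18 none of the 10 genes was called in 18 flut against 18 m, where 3.95% of all probe sets were called, and none had an unadjusted p under 0.05. The contractile differences there were between -0.06 and 0.19. The 18 flut pools ran from 9.01 to 9.91 in Actg2, with the pool labelled 18 flut 3 at the top in Acta2, Myh11, Tagln, Cnn1 and Actg2. In Actg2 that pool was at 9.91, with 18 flut 1 and 18 flut 2 at 9.01 and 9.59 and 18 m at 9.24 to 9.63. In Cnn1 it was at 8.58, with 18 flut 1 and 18 flut 2 at 7.73 and 8.15 and 18 m at 8.05 to 8.43. What it adds to these differences was not tested. Against females, none of the 10 genes was called in 17 flut (4.39% of all probe sets called, 4 genes at an unadjusted p under 0.05) or in 18 flut (0.278% called, 2 genes).

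**Figure D5:**
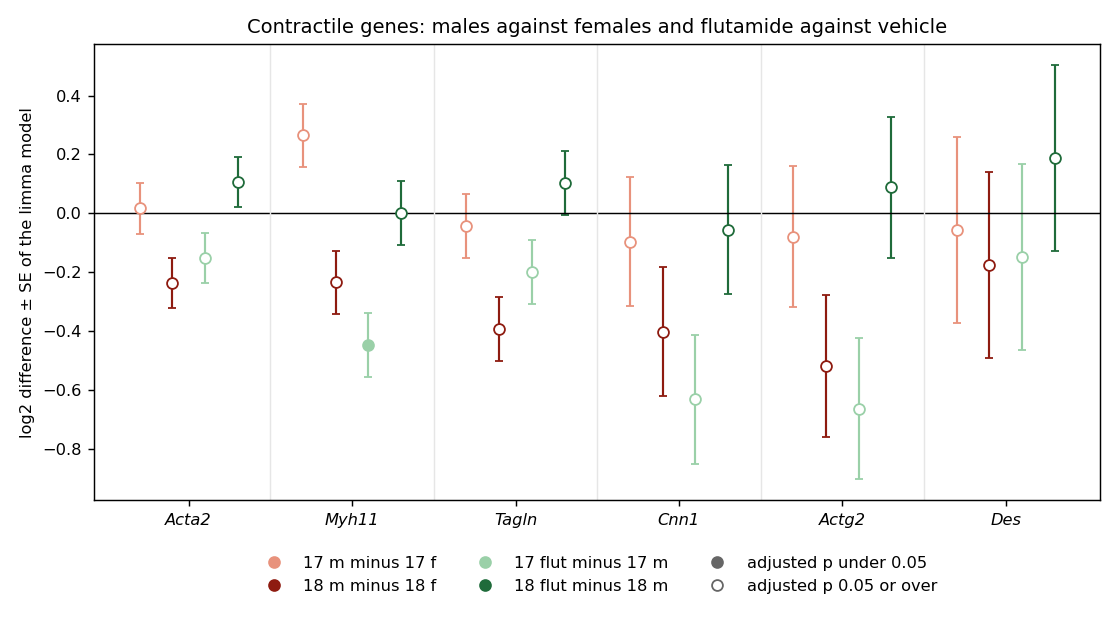
Differences between groups of the same day (y axis, log2, with the SE of the limma model) for the 6 contractile genes, 3 pools a group. The only filled (called) point is Myh11 in 17 flut against 17 m, and all 6 genes lie below 0 both there and in 18 m against 18 f.

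Genes around these 10 were counted in lists. Of 17 further genes of the contractile apparatus, 4 were called higher and 3 lower in 18 m against 17 m, where 12.4% of all probe sets were higher and 12.6% lower, with a median of -0.03. The lower ones were Synpo2, an actin-bundling protein (-0.77, SE 0.11, limma adjusted p = 8.47e-05), Myl9, the regulatory light chain of smooth muscle myosin (-0.40, SE 0.13, adjusted p = 0.0357), and the tropomyosin Tpm1. Among the higher ones were Fhl1, a LIM-domain protein of muscle (0.46, SE 0.08, adjusted p = 0.00032), and Myl6, a myosin light chain of many cell types (0.26, SE 0.07, adjusted p = 0.0164). In 18 f against 17 f 4 were higher and 2 lower (33.6% of all probe sets called), and in 18 flut against 17 flut 3 were higher and none lower (20.3% called, 6 of the 17 genes at an unadjusted p under 0.05). In 17 flut against 17 m 2 of the 17 were called, both lower: Myl9 (-0.58, SE 0.13, adjusted p = 0.0256) and Synpo2 (-0.48, SE 0.11, adjusted p = 0.0259).

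Of 9 transcription regulators of smooth muscle genes, 4 were called higher and none lower in males from GD17 to GD18, 4 higher and 1 lower in females, and 3 higher and none lower in flutamide-treated males. Of all probe sets 12.4%, 16.5% and 9.61% were called higher in these comparisons. Mrtfb, a myocardin-related coactivator of SRF, rose by 0.60 (SE 0.07, limma adjusted p = 2.95e-05) in males, and its 9 GD18 pools (9.94 to 10.19) did not overlap its GD17 pools (9.37 to 9.69). Its relative Mrtfa rose by 0.71 in males (SE 0.13, adjusted p = 0.000626). Klf4, which is known to repress smooth muscle genes, rose by 0.96 in males (SE 0.13, adjusted p = 7.52e-05), 0.90 in females and 0.68 in flutamide-treated males. Srf itself and its partner Myocd, looked up after the list was seen, differed by -0.02 (SE 0.08) and -0.16 (SE 0.13) in males and were not called.

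In the rest of the PDGF pathway, 16 genes, 3 were called higher and 2 lower in males, 3 higher and 4 lower in females, and 2 higher and 2 lower in flutamide-treated males, where 25.0%, 33.6% and 20.3% of all probe sets were called in either direction. Pdgfc, another ligand of PDGFR-alpha that is activated by protease cleavage, moved against Pdgfb. Its 9 GD17 pools were at 9.03 to 9.57 and its 9 GD18 pools at 7.95 to 8.36, with differences of -1.14 in males (SE 0.10, limma adjusted p = 1.84e-06), -1.25 in females and -1.01 in flutamide-treated males. Pik3r1, the regulatory subunit of PI3-kinase that docks on activated receptors, rose in each (0.45, 0.64 and 0.61), as did the adaptor Gab1 (0.47, 0.64 and 0.50).

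Most pericyte markers rose from GD17 to GD18. Of 10 measured, 8 were called higher in males, 8 in females and 6 in flutamide-treated males, and none lower, where 12.4%, 16.5% and 9.61% of all probe sets were called higher in these comparisons, which also hold for the endothelial and airway counts that follow. The median differences were 0.36, 0.54 and 0.35. Higd1b rose most, by 1.5 in males (SE 0.13, limma adjusted p = 1.85e-06), with GD17 pools at 6.72 to 7.39 and GD18 pools at 8.17 to 8.62. Ndufa4l2 rose by 0.70 in males and Cspg4, the NG2 proteoglycan of pericytes, by 0.75 in females. Of 5 endothelial markers 3, 4 and 4 were called higher, among them Cdh5 (0.58 in males, 0.67 in females and 0.43 in flutamide-treated males). Of 8 genes of airway smooth muscle and myofibroblasts 4, 3 and 3 were called higher, among them Hhip, an inhibitor of hedgehog signalling (0.61, 1.27 and 0.43). These lists moved with the PDGF members, and their part in the PDGF values was not tested.

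Over the 18 arrays, Pearson r was 0.91 between Pdgfb and Pdgfrb, 0.83 between Pdgfb and Pdgfra and 0.84 between both receptors. Among Acta2, Cnn1 and Actg2 it was 0.88 to 0.98, and Acta2 with Pdgfra gave -0.63. Pdgfa reached only 0.27 to 0.35 with the other PDGF genes. Des reached 0.14 to 0.15 with Acta2, Cnn1 and Actg2 but 0.43 with Pdgfb and 0.49 with Pdgfrb, and Myh11 and Tagln were between -0.02 and 0.03 with both receptors. All these arrays share the same GD17 to GD18 step and the pools that stand apart, so r is a description of these arrays. Among 11373 other genes with a mean at or above the median, those most like the mean of the 6 contractile genes were Tpm2, the beta-tropomyosin of muscle (r = 0.91), Lgi2 (0.88), Krt13, a keratin of squamous epithelium (0.87), Lum, the matrix proteoglycan lumican (0.86), and Myl9 (0.84). Those most like Pdgfra were Svep1 (0.98), Ltbp4 (0.97) and Col6a2 (0.97), and those most like Pdgfrb were Adamts10 (0.97), Maml1 (0.96) and Lamb1 (0.96).

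Ordered by group mean from low to high, Pdgfb ran 17 m, 17 f, 17 flut, 18 m, 18 f, 18 flut. In that order the neighbours 17 m and 17 f, 18 m and 18 f, and 18 f and 18 flut overlapped. Pdgfra and Pdgfrb shared an order in which 17 f was lowest, followed by 17 m and then 17 flut, and 18 f was highest, preceded by 18 flut and 18 m, with 2 of 5 neighbouring pairs overlapping in Pdgfra and 4 of 5 in Pdgfrb. Actg2 ran 18 m, 18 flut, 17 flut, 18 f, 17 m, 17 f, and 3 of 5 neighbouring pairs overlapped. In Acta2, Tagln and Pdgfa all 5 neighbouring pairs overlapped.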

How the data were processed

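Fetal lung RNA pools of 3 fetuses were hybridised to MOE430 2.0 arrays (18 arrays, 6 groups of 3). The authors scanned them in GCOS and normalised them by robust multichip average (RMA). The deposited values are RMA intensities on a linear scale, from 6.61 to 30228, where log2 values had been assumed, so log2 was taken. The submitters' processing notes name limma, with no version.

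Of 45101 probe sets, 64 controls were left out. The other 45037 were fitted in limma 3.58.1 (R 4.3.3) with 1 mean per group (12 residual degrees of freedom), empirical Bayes moderation and Benjamini-Hochberg adjustment within each of 11 comparisons, at 0.05. The model was tested on simulated data with independent noise for each probe set, which held no pools that stand apart. The platform annotation of 2016 gave 34945 probe sets 1 symbol, 932 several and 9160 none, and 3 listed symbols were updated through RefSeq synonyms. Of each list, up to 4 genes of smallest p were named, and Myl9, Tpm1, Srf and Myocd in males were named after their values were seen. The genes and lists were chosen with earlier results of these data known. Lists are described by counts and medians, with no set test. Nothing in the labels says how litters were shared between pools of different groups, and p-values measure only the spread between pools. The small number of arrays limits the precision. Alternatives covered normalization, filtering, array weights, moderation, probe set choice, the replicate block and left-out pools.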

Additional observations from a re-analysis of the deposited data

How the results depend on the processing

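Of 35 differences followed, 13 of them called, 712 values under alternatives kept direction and side of the threshold, 45 lost the call, 46 gained one and 3 changed sign. Pdgfra in 18 m against 17 m went to -0.0636 (adjusted p = 0.80) with the mean of its probe sets, and Tagln in 17 flut against 17 f to 0.0205 both without the 3 pancreas-high pools and without all 7 pools that stand apart. The cause was not tested.

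The number of the 10 genes called changed as follows. In 18 m against 17 m, 6 became 3 with an indicator of the 3 pancreas-high pools. In 18 f against 17 f, 3 became 5 both without those 3 pools and without all 7. In 17 flut against 17 m, 1 became 0 with the indicator, with the mean of probe sets and without 18 flut 2 and 18 f 2, became 2 when only the groups compared were fitted, and became 3 without all 7. In 18 m against 18 f, 0 became 1 with cyclic loess, repeated quantile normalization, probe sets at or above the median or the indicator, 2 with array weights or without 18 m 3 and 18 flut 3, and 4 without all 7. In the difference between the sexes in the change of days, 0 became 1 with the indicator, an intensity trend or the 3 pancreas-high pools left out, 2 with loess, repeated quantile normalization, array weights or probe sets at or above the median, and 4 without all 7. In 17 m against 17 f, 0 became 1 without the 3 pools and without all 7. In 17 flut against 17 f, 0 became 1 without 18 m 3 and 18 flut 3, and 4 with array weights. In 18 flut against 18 f, 0 became 2 without all 7. Leaving out all 7, or 18 flut 2 with 18 f 2, was chosen after seeing the data. Naming the 3 pancreas-high pools, or 18 m 3 with 18 flut 3, also rests on values of these same arrays, since the labels do not set them apart. Without the 3 pancreas-high pools 17 f rests on 1 pool, and without all 7 so does 18 flut.

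With 1 pool left out the counts ran from 2 (without 17 m 3) to 6 in 18 m against 17 m, from 3 to 5 in 18 f against 17 f, from 2 to 3 in 18 flut against 17 flut, from 0 to 4 (without 17 f 1) in 17 flut against 17 f, and from 0 to 1 in 18 m against 18 f and in the difference between the sexes. They were 0 in the 5 other comparisons.

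Whether pool numbers pair the samples is not given by the labels, and the values do not settle it. Of 45 same-numbered pairs 12 had a correlation of deviations over 0.1 (median -0.03, from -0.32 to 0.37). For 10 of 18 pools the best match in another group had their own number. With the replicate number as a block, the count in 17 flut against 17 f went from 0 to 2, and no other count moved by over 1.5 times.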
